A study of Mus musculus with 8 samples.

Results

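The 35 genes described here run or brake the cell division cycle. They were chosen by symbol from known roles, by a rule that uses no measured value, though with earlier results of the series known, and all 35 had a row among the 23238 distinct gene symbols of the series. They fall into 10 G1 regulators (D and E cyclins, their kinases, E2f1 and Rb1), 4 kinase inhibitors, 10 S phase genes (replication helicase, sliding clamp and nucleotide synthesis) and 11 mitotic genes. Ribosome-associated RNA of mouse lung endothelium was measured in 8 libraries, 4 of control mice kept in room air and 4 of mice kept in hypoxia after induced deletion of Sox17. The controls carried Cdh5-CreERT2 and RPL22tm1.1Psam, and the other group carried Cdh5-CreERT2, Sox17fl/fl and RPL22tm1.1Psam, all on C57BL/6J. Cdh5-CreERT2 is a tamoxifen-inducible recombinase driven by an endothelial promoter, and the RPL22 allele tags ribosomes of recombined cells so that their transcripts can be immunoprecipitated. Both groups received 2 mg of tamoxifen on 5 consecutive days at 8 weeks of age, and room air or hypoxia lasted 3 weeks from 10 weeks of age. The series has no Sox17-deleted group in room air and no control in hypoxia, so genotype and oxygen cannot be told apart.

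Most endothelial cells of the adult lung rest outside the cycle. Mitogens raise the D cyclins, which with CDK4 and CDK6 phosphorylate the retinoblastoma protein and free E2F factors to transcribe S phase genes. The inhibitors p21 (Cdkn1a), p27 (Cdkn1b) and p57 (Cdkn1c) hold cyclin-kinase complexes in check, whereas p18 (Cdkn2c) binds CDK4 and CDK6 themselves. Most of the mitotic genes reach their peak late in the cycle, and their transcripts are found in dividing cells.

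Library totals ran from 7000313 to 12913304 counts, and a level is given as CPM, the count divided by the library total and scaled to 1000000. The libraries were made from the 3′ end of transcripts, where a transcript gives about 1 fragment whatever its length, so CPM was not divided by length. A value of 3 counts, taken as the floor of detection, equals 0.232 to 0.429 CPM. Sox17, the targeted gene, had 205 to 291 CPM in control libraries and 36.6, 3.28, 0.857 and 3.67 CPM in Sox17-deleted hypoxic libraries 1 to 4, with no overlap between the groups. Genes with at least 1 count numbered 10081 ± 259 per control library and 8450 ± 305 (SD, n = 4) per Sox17-deleted hypoxic library (two-sided exact permutation p = 0.0286, and 2 groups of 4 cannot give a smaller one). All 10 listed endothelial markers had counts in the series, and 3 of them had a higher mean in the Sox17-deleted hypoxic group. They summed to 7688 to 8108 CPM in control and 5658 to 9345 CPM in Sox17-deleted hypoxic libraries. The tables of Sox17-deleted hypoxic libraries 2, 3 and 4 share a number in their names, and the labels do not say whether they come from different mice.

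No cell cycle gene passed the test between the groups. In edgeR's quasi-likelihood fit over 8282 genes, 27 of the 35 passed the low-count filter and 0 of those 27 had an adjusted p under 0.05, where 0.0% of all tested genes did. At an unadjusted p under 0.05 the members also counted 0 (5.12% of all tested genes). DESeq2 and limma-voom on the same genes called 0 members as well, against 1.87% and 0.531% of all genes, and edgeR without the low-count filter also called 0, against 0.121% of 14071 genes. DESeq2 gave an unadjusted p under 0.05 to Mcm3 alone (0.0340), and limma-voom to Ccne2 (0.0266) and Cdkn1c (0.00523). Over all 8282 genes, DESeq2 gave such a p to 606 and limma-voom to 1106. Each of the 27 tested members had the same edgeR adjusted p of 0.9997, and over the alternative settings the adjusted p of members ran from 0.175 to 1. The targeted gene Sox17 was not called by edgeR either (log2 fold change −4.39, SE 1.01, adjusted p = 0.346). A lack of calls therefore does not show a lack of change. For 0 of the 35 did the groups of libraries separate without overlap, where 6.59% of all tested genes did, 1.63% with the Sox17-deleted hypoxic libraries higher and 4.96% with them lower.

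The 4 roles nonetheless had different levels. The S phase genes summed to 161, 207, 303 and 244 CPM in control libraries 1 to 4 and to 330.4, 594, 563 and 663 CPM in Sox17-deleted hypoxic libraries 1 to 4. Their mean sum was thus 229 ± 60.1 CPM in controls and 537 ± 144 CPM in the other group, a ratio of 2.35, and all 4 Sox17-deleted hypoxic sums lay above all 4 control sums. Without Mcm3, the most abundant S phase gene, the sums overlapped, at 116 to 251 CPM in control and 212 to 552 CPM in Sox17-deleted hypoxic libraries. The mitotic genes summed to 185, 301, 493 and 182 CPM in the controls and to 42.5, 837, 628 and 454 CPM in the Sox17-deleted hypoxic libraries. The lowest and the highest mitotic sum of the series were therefore both in the Sox17-deleted hypoxic group. G1 regulators summed to 1551 ± 201 and 1984 ± 328 CPM and the inhibitors to 1712 ± 405 and 1527 ± 768 CPM (SD, n = 4), with overlap in both roles. Those sums were led by Ccnd1 and Cdkn1a. Without Ccnd1, the other G1 regulators summed to 683 to 887 CPM in control and 970.1 to 1312 CPM in Sox17-deleted hypoxic libraries, and without Cdkn1a the other inhibitors summed to 232 to 355 and 93.9 to 194 CPM. Neither remainder overlapped between the groups. Without Ccnd3 as well, whose reads may be shared with a neighbouring gene, the G1 remainder did overlap, at 375 to 720 CPM in control and 645 to 852 CPM in Sox17-deleted hypoxic libraries. The sums carry no test, because the genes were picked with results of the series known. In bulk libraries, fewer cells of a type and less RNA per cell cannot be told apart.

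**Figure D1:**
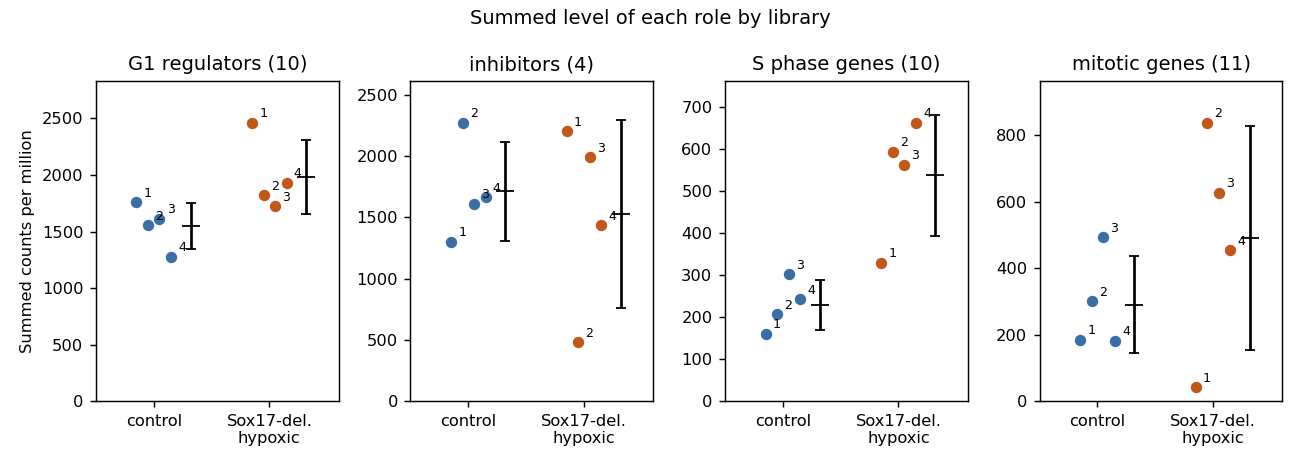
Summed CPM of the genes of each role in each library; points are libraries, numbered 1 to 4 within their group, and the bar beside each group is the mean ± SD (n = 4). The S phase sums of the Sox17-deleted hypoxic libraries all lie above the control sums, and Sox17-deleted hypoxic library 1 has the lowest mitotic sum, 42.5.

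Ranked by direction alone, 20 of the 27 tested members had a positive log2 fold change (Sox17-deleted hypoxia minus control) and 7 a negative one, where 49.6% of all tested genes were positive. A wider list of 105 cell cycle genes, described below, did not lean that way, with 27 positive and 36 negative of 63 tested. The median log2 fold change was 0.55 over 8 tested G1 regulators, −0.52 over the 4 inhibitors, 1.18 over 8 tested S phase genes and 0.79 over 7 tested mitotic genes, against −0.01 over all tested genes. The 8 members left out by the filter were Ccne1, Cdk6, Rrm2, Tyms, Ccnb1, Cdk1, Aurkb and Bub1, so these counts do not cover the whole set. Over all 35, the mean CPM was higher in the Sox17-deleted hypoxic group for 22, higher in controls for 11, and 0 in both for 2. Limma-voom gave 14 positive members of 27 and a median of −0.73 for the mitotic genes, in a fit whose median over all genes was itself −0.71.

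**Figure D2:**
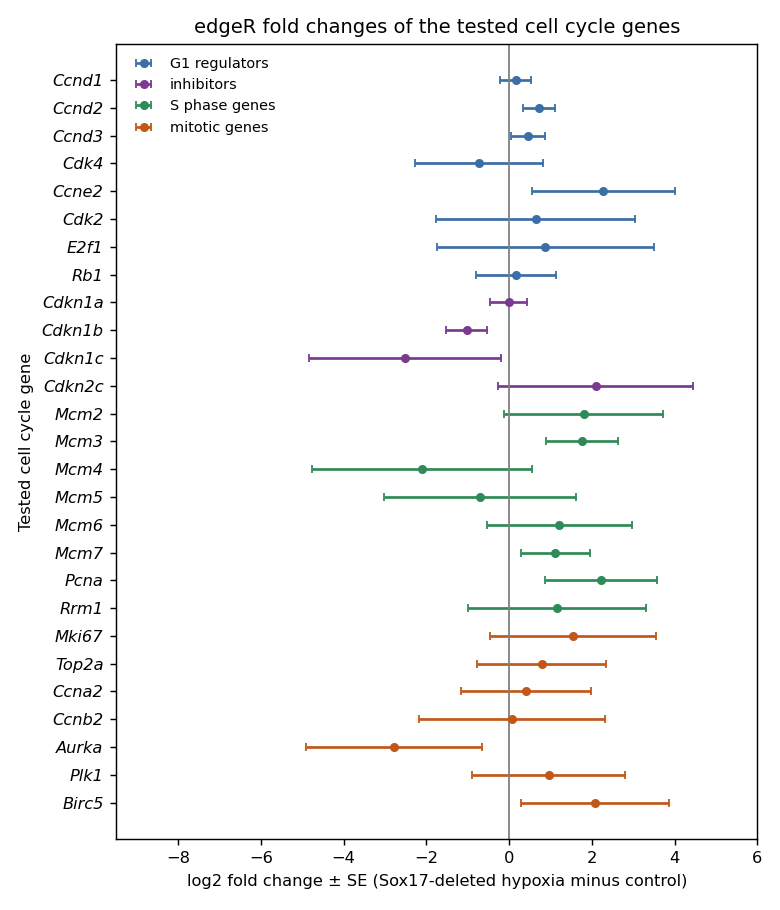
edgeR log2 fold changes (x axis, Sox17-deleted hypoxia minus control, points with ± 1 SE bars) of the 27 tested cell cycle genes, coloured by role. The bars of Ccnd1, Ccnd2, Ccnd3, Cdkn1a and Cdkn1b are short (SE 0.37 to 0.49) and those of most S phase and mitotic genes are long (SE up to 2.67).

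Among the D, E, A and B cyclins of the set, the D cyclins had the highest levels. Ccnd1 (chromosome 7, 144929931 to 144939925, minus strand, GRCm38) encodes cyclin D1, the D cyclin most closely tied to growth factor signalling. It stood at 871, 873, 797 and 573 CPM in the controls and at 1456, 851, 414 and 743 CPM in the Sox17-deleted hypoxic libraries. The Sox17-deleted hypoxic values spanned the control range on both sides, and the log2 fold change of 0.16 (SE 0.37) became −0.22 without Sox17-deleted hypoxic library 1.

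Ccnd2 (chromosome 6, 127125162 to 127152193, minus strand), the gene of cyclin D2, had 448, 239, 271 and 357 CPM in the controls and 280.3, 535, 772 and 531 CPM in the Sox17-deleted hypoxic libraries (a log2 fold change of 0.72, SE 0.39). Libraries 2, 3 and 4 of the second group lay above all controls, and library 1 lay among them. Ccnd3, the gene of cyclin D3, had 167, 271, 441 and 227 CPM against 359, 205, 459 and 454 CPM (0.47, SE 0.41), with the groups intermixed. Ccnd1 made up 49.5% to 63.1% of D cyclin counts in control libraries and 69.5%, 53.5%, 25.2% and 43.0% in Sox17-deleted hypoxic libraries 1 to 4. In library 3 of that group Ccnd2 was the leading D cyclin, at 46.9% of these counts.

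Of the kinases that D cyclins activate, Cdk4 was measured and Cdk6 was not detected. Cdk4 had 76.4, 66.0, 64.0 and 23.2 CPM in the controls and 3.64, 26.6, 0 and 113 CPM in the Sox17-deleted hypoxic libraries (a log2 fold change of −0.73, SE 1.54), so the second group held both the lowest and the highest value. Cdk6 had 0 counts in all 8 libraries, which allows up to 0.429 CPM in the shallowest of them. The gene models behind the counts are not named in the labels, and a 3′ end outside them would not be seen.

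The E cyclins, which activate CDK2 at entry into S phase, differed in detection. Ccne1 had 0 counts in all 8 libraries. Ccne2 had 21.8, 0.181, 29.3 and 0.0841 CPM in the controls and 121, 79.4, 14.7 and 32.3 CPM in the Sox17-deleted hypoxic libraries (a log2 fold change of 2.28, SE 1.73). It was thus above 3 counts in 2 of 4 control and 4 of 4 Sox17-deleted hypoxic libraries. Cdk2 was above 3 counts in 3 and 2 libraries and reached 43.3 CPM. E2f1, whose product drives S phase genes, was above 3 counts in 1 control and 3 Sox17-deleted hypoxic libraries and reached 41.5 CPM in control library 2. Rb1, the gene of the retinoblastoma protein that restrains E2F, had 148, 65.2, 2.84 and 91.2 CPM in the controls and 179, 86.8, 44.6 and 36.9 CPM in the other group (0.17, SE 0.97), and its fold change was −0.46 without Sox17-deleted hypoxic library 1.

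Cdkn1a (chromosome 17, 29090976 to 29100727, plus strand), which encodes the p53-induced inhibitor p21, was the most abundant of the 35 genes. It had 1019, 1916, 1371 and 1431 CPM in the controls and 2012, 389, 1795 and 1316 CPM in the Sox17-deleted hypoxic libraries, and made up 78.2% to 91.7% of inhibitor counts across the 8 libraries. The Sox17-deleted hypoxic group held both the highest value, in library 1, and the lowest, in library 2. The group difference was −0.01 (SE 0.44) on the log2 scale, and its sign was positive with RLE factors, where it was 0.0915.

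Cdkn1b (chromosome 6, 134920401 to 134925513, plus strand) encodes p27, an inhibitor that accumulates in resting cells. Its levels were 251, 325, 179 and 175 CPM in the controls and 189.8, 65.9, 113 and 78.2 CPM in the Sox17-deleted hypoxic libraries. Libraries 2, 3 and 4 of that group lay under all controls, and library 1 lay between them (log2 fold change −1.03, SE 0.49, edgeR unadjusted p = 0.0561). Cdkn1c, which encodes p57, had 33.0, 13.8, 51.8 and 50.5 CPM in the controls and 0, 26.8, 0 and 0.179 CPM in the other group (−2.52, SE 2.32). It was above 3 counts in 4 of 4 control libraries and in 1 of 4 Sox17-deleted hypoxic libraries. Cdkn2c, the gene of p18, had its highest values, 80.3 and 41.1 CPM, in Sox17-deleted hypoxic libraries 3 and 4, and 0 to 16.2 CPM in the controls.

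The replicative helicase is a ring of MCM2 to MCM7 that is loaded at origins before S phase, and its genes did not have the same pattern across libraries. Mcm3 (chromosome 1, 20802968 to 20820312, minus strand) had 10.0, 91.1, 51.9 and 42.9 CPM in the controls and 45.2, 41.1, 351 and 191 CPM in the Sox17-deleted hypoxic libraries. Its log2 fold change of 1.76 (SE 0.86, edgeR unadjusted p = 0.0614) had the lowest p of the S phase genes, and the 2 high libraries were 3 and 4. Mcm7 had 34.1, 23.1, 37.2 and 94.4 CPM against 32.1, 102, 159 and 104 CPM (1.12, SE 0.83), again with library 1 of the second group among the controls.

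Mcm2 had 25.9, 3.07, 12.0 and 5.22 CPM in the controls and 0, 85.1, 36.9 and 41.0 CPM in the other group (log2 fold change 1.80, SE 1.92). Mcm6 had 35.6, 0.0904, 28.4 and 25.7 CPM against 47.6, 151.5, 0.143 and 14.8 CPM (1.21, SE 1.75). Mcm4 went the other way, with 32.9, 0, 101 and 11.2 CPM in the controls and 0, 0, 0 and 33.9 CPM in the Sox17-deleted hypoxic group (−2.11, SE 2.67). Subunits that act in a single ring therefore differed in which libraries held them, and Mcm5, at 0 to 20.5 CPM, was low in both groups.

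Pcna (chromosome 2, 132249162 to 132253314, minus strand) encodes the sliding clamp of DNA polymerases. It had 6.81, 69.0, 5.50 and 15.6 CPM in the controls and 108, 157, 0.143 and 206 CPM in the Sox17-deleted hypoxic libraries (a log2 fold change of 2.22, SE 1.36). Libraries 1, 2 and 4 of the second group were above all controls, and library 3, with 1 count, was below them. The ribonucleotide reductase genes make deoxynucleotides: Rrm1 had 0.568, 0.452, 52.0 and 11.6 CPM against 79.4, 0.106, 0.143 and 59.9 CPM (1.16, SE 2.16). Rrm2, its regulated small subunit, was above 3 counts in 1 control and 2 Sox17-deleted hypoxic libraries, with a maximum of 47.0 CPM. Tyms, the thymidylate synthase gene, was above 3 counts in 3 and 1 libraries and reached 24.7 CPM.

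**Figure D3:**
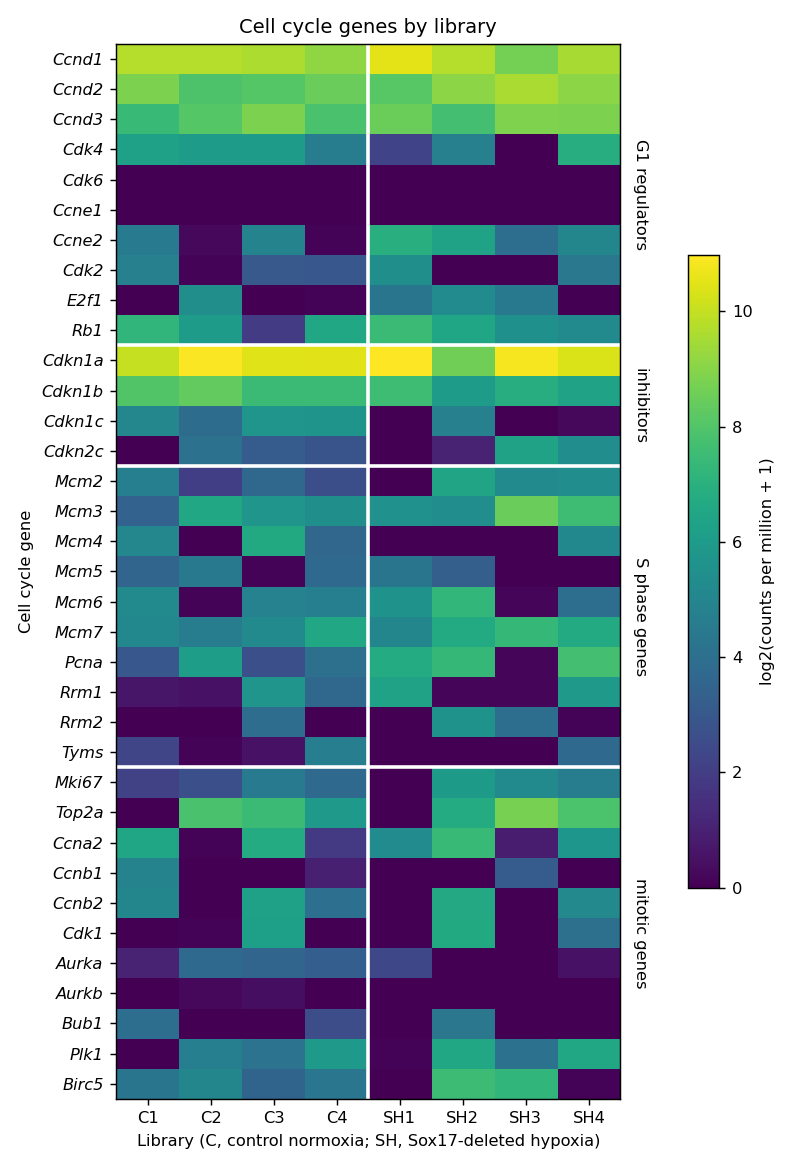
Level of each of the 35 cell cycle genes (rows, by role) in each library (columns), as log2(CPM + 1). The D cyclin, Cdkn1a and Cdkn1b rows are filled in all 8 libraries, whereas many S phase and mitotic rows are at or near 0 in some libraries and filled in others, and the mitotic block is nearly empty in Sox17-deleted hypoxic library 1.

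Among mitotic genes, Mki67 (chromosome 7, 135689784 to 135716361, minus strand) encodes Ki-67, the standard marker of cycling cells. It had 3.50, 5.42, 22.2 and 12.6 CPM in the controls and 0, 63.0, 37.6 and 23.1 CPM in the Sox17-deleted hypoxic libraries (a log2 fold change of 1.53, SE 2.01). Libraries 2, 3 and 4 of the second group were above all controls, and library 1 was at 0. Top2a, the gene of the topoisomerase that untangles sister chromatids, had 0, 225, 179 and 60.2 CPM against 0, 107, 418 and 234 CPM (0.79, SE 1.56). A library of each group was at 0. Limma-voom gave −0.55 for Mki67 and −0.73 for Top2a, beside its median of −0.71 over all genes.

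The cyclins and the kinase that drive entry into mitosis were unevenly detected. Cdk1 was above 3 counts in 1 control and 2 Sox17-deleted hypoxic libraries, and Ccnb1 in 2 and 1. Ccnb2 was above 3 counts in 3 and 2 libraries, and Ccna2 in 3 and 4. Cdk1, the mitotic kinase gene, had 0, 0.0904, 71.6 and 0 CPM in the controls and 0, 101, 0 and 15.8 CPM in the other group. Ccnb2, which encodes its partner cyclin B2, had 31.7, 0, 75.9 and 15.1 CPM against 0, 97.4, 0 and 34.9 CPM (log2 fold change 0.07, SE 2.25, and −3.79 with a replicate block). Ccna2, the gene of cyclin A2, had 87.2, 0.0904, 106 and 2.69 CPM against 38.3, 173.5, 0.857 and 53.9 CPM (0.41, SE 1.58). Cdk1, Ccnb2 and Ccna2 were each highest in Sox17-deleted hypoxic library 2 and next highest in control library 3. Ccnb1, the gene of cyclin B1, did not share that pattern, with 28.9, 0, 0 and 0.926 CPM in the controls and 0, 0, 8.14 and 0 CPM in the Sox17-deleted hypoxic libraries.

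Promoters of Ccnb2, Cdk1, Mki67 and Mcm7 are printed because these genes carry the library patterns above and show the elements known from cell cycle promoters. Each sequence runs 5′ to 3′ on the gene's own strand, is taken from RefSeq (GRCm38.p6), and counts positions from the annotated start site. Capitals mark matches, on either strand, to the CCAAT box (CCAAT or ATTGG), to the cell cycle homology region CHR (TTTGAA or TTCAAA) and to E2F words (TTTCCCGC, TTTGGCGC, TTTCGCGC and TTTGCCGC, and their reverse complements). The Ccnb2 stretch (chr9:70421540-70421654, minus strand, −100 to +15) holds 3 CCAAT boxes and 1 CHR, the Cdk1 stretch (chr10:69352913-69353052, minus strand, −140 to −1) 2 CCAAT boxes, 2 CHR and 1 E2F word, the Mki67 stretch (chr7:135716464-135716569, minus strand, −190 to −85) 3 CCAAT boxes and 2 CHR, and the Mcm7 stretch (chr5:138171898-138172053, minus strand, −170 to −15) 2 CCAAT boxes and 1 E2F word.
Ccnb2: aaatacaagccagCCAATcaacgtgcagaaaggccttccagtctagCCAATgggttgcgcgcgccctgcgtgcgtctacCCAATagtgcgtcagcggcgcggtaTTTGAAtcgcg
Cdk1: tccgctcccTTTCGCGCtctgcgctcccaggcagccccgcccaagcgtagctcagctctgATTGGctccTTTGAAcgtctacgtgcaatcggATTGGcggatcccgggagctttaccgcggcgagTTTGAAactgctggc
Mki67: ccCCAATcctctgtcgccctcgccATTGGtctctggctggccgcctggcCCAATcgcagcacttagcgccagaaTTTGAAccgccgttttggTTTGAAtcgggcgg
Mcm7: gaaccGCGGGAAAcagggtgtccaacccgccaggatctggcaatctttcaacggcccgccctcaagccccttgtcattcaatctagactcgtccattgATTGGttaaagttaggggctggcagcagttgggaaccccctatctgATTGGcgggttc

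Over the whole window from 250 bases before to 50 after the start, the RefSeq table matched 27 of the 35 genes. The CHR letters were in 6 of 9 mitotic, 1 of 9 S phase, 0 of 6 G1 and 0 of 3 inhibitor promoters, against 20.2% of 27025 genes. CCAAT was in 8 of 9 mitotic and 8 of 9 S phase promoters, against 41.1% of all genes. The E2F words were in 4 of 9 S phase promoters (Mcm3, Mcm5, Mcm6 and Mcm7) and in Cdk1 and Cdk2, against 2.60% of all genes. Ccnb2, Cdk1 and Mki67, each highest in Sox17-deleted hypoxic library 2, hold CHR and CCAAT letters, and so do Top2a and Aurka, which are highest in other libraries, and Plk1, which is about equally high in libraries 2 and 4 of that group. These are matches of letters in a window and describe the genes, not their occupancy in these libraries.

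The mitotic kinases and the survivin gene were as uneven. Plk1, which encodes polo-like kinase, had 0, 25.9, 16.9 and 58.1 CPM in the controls and 0.0774, 91.7, 16.3 and 91.8 CPM in the Sox17-deleted hypoxic libraries (a log2 fold change of 0.95, SE 1.86). Birc5, whose product survivin belongs to the chromosomal passenger complex, had 18.2, 31.6, 10.6 and 19.1 CPM against 0, 184, 147 and 0.0896 CPM (2.08, SE 1.79, and −2.58 with limma-voom, whose all-gene median was −0.71). Its controls lay close together, whereas the second group held 2 libraries at or near 0 and 2 far above the controls. Aurka, the gene of a centrosomal kinase, reached 12.3 CPM in the controls and 4.18 CPM in the other group, with 4 and 2 libraries above 3 counts. Bub1, a spindle checkpoint gene, was above 3 counts in 2 and 1 libraries and Aurkb, the passenger complex kinase gene, in 1 and 0, with no Aurkb value over 0.344 CPM.

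Values that switch between 0 and a clearly detected level were common to the whole series, and more common among these genes. Of the 16 members with a mean of 20 to 100 CPM, 15.6% of control values and 31.2% of Sox17-deleted hypoxic values were at 3 counts or fewer, against 5.90% and 20.9% of values for the 4248 genes in that range. Both groups of libraries thus lacked these transcripts more often than those of all genes in that range, a difference given without a test. Mean levels were not matched within the range, and several members, such as Mki67 and Cdkn1c, lie near its lower end. Ccnd1, Ccnd2, Ccnd3, Cdkn1a and Cdkn1b, each above 3 counts in all 8 libraries, held 76.1% to 83.6% of all member counts in controls and 54.8% to 85.3% in Sox17-deleted hypoxic libraries.

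Sox17-deleted hypoxic library 1 differed from the other libraries of its group in these genes. It had the largest total of the series, 12913304 counts, yet only 2 of 11 mitotic genes were above 3 counts in it, against 8, 6 and 7 in libraries 2, 3 and 4 and 5 to 9 in the controls. It also had the most Sox17 of its group, 36.6 CPM against at most 3.67 CPM, and the part of residual Sox17 in the cell cycle values was not tested. Without it, 6 of the 27 tested members had groups that did not overlap: Ccnd2, Mcm2, Mcm7 and Mki67 higher (4.32% of all tested genes were) and Cdkn1b and Aurka lower (9.65%). In edgeR without this library, the unadjusted p was 0.0239 for Ccnd2 (log2 fold change 0.97, SE 0.37), 0.0212 for Cdkn1b (−1.36, SE 0.51) and 0.0288 for Mcm3 (2.13, SE 0.86). None had an adjusted p under 0.335, in a fit that called 0.0553% of 9048 genes. In that fit 973 of the 9048 genes had an unadjusted p under 0.05. Of the 32 members tested there, no others did. These values describe what remains when a library is left out and do not show that it is faulty. Mcm2 and Mki67 had 0 counts in library 1, so leaving it out favours their separation. With any other single library left out, 0 to 2 of the 27 tested members had groups that did not overlap.

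Reads of 7 members may be shared with a neighbour on the opposite strand, because an exon of another gene lies within the last 500 bases of the gene and no strand setting is given. The ribosome assembly gene Bysl, at the end of Ccnd3, had 2627, 3079, 5406 and 2755 counts in the controls, where Ccnd3 had 1762, 3003, 5137 and 2696. In the Sox17-deleted hypoxic libraries Bysl had 5673, 2440, 3216 and 6186 counts and Ccnd3 had 4636, 1935, 3216 and 5071. The counts were identical in 1 library, and in all 8 the ratio of Bysl to Ccnd3 lay between 1.00 and 1.49, so the Ccnd3 level is uncertain. Exosc9, an exosome gene at the end of Ccna2, equalled Ccna2 in 2 libraries (1 and 494 counts) and had 0.377 to 1.28 counts per Ccna2 count in the 6 libraries where both exceeded 3 counts.

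Ints8, at the end of Ccne2, had 460 and 3137 counts in control library 1 and Sox17-deleted hypoxic library 1, where Ccne2 had 230 and 1563, and 0 in Sox17-deleted hypoxic library 4, where Ccne2 had 360. The remaining pairs did not keep a steady ratio: Cops6 had 0.448 to 3.99 counts per Mcm7 count in 7 libraries, and Tspan31 0.365 to 1.06 per Cdk4 count in 5. Oraov1, at the end of Ccnd1, had at most 0.0765 counts per Ccnd1 count in the 4 libraries where both exceeded 3 counts. The neighbour of Rb1, Rcbtb2, reached 131 counts in control library 3, where Rb1 had 33. Pseudogenes named after Ccnd3, Pcna, Tyms, Ccnb1 and Ccnb2 exist in the annotation, and the tables list Tyms-ps, which had 464 counts in control library 3, where Tyms had 5.

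**Figure D4:**
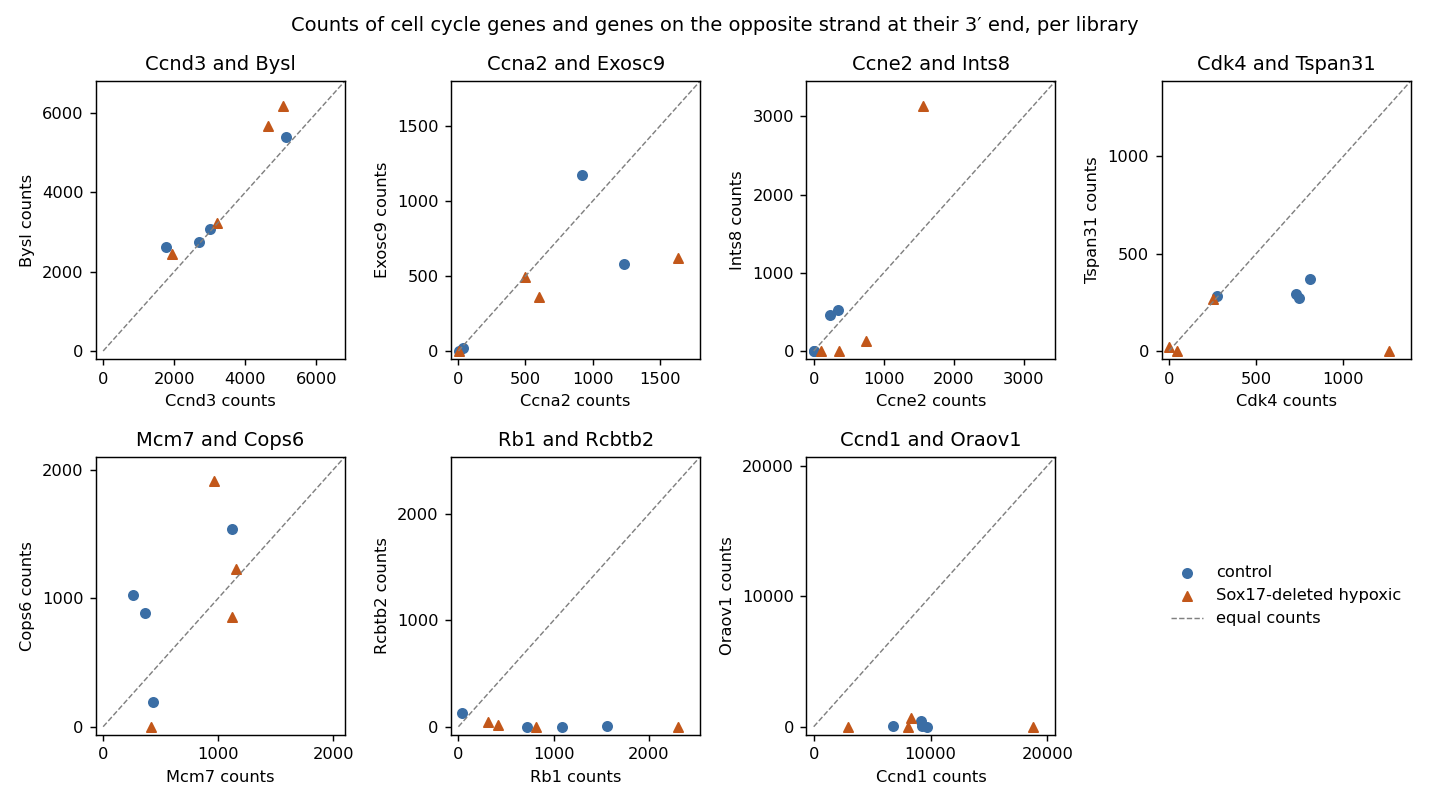
Counts of 7 cell cycle genes (x axes) and of the opposite-strand gene at their 3′ end (y axes) in each library; circles are control, triangles Sox17-deleted hypoxic libraries, and the dashed line marks equal counts. Bysl has 1.00 to 1.49 counts per Ccnd3 count in all 8 libraries, on or above the line, whereas Ccnd1 has at most 0.0765 Oraov1 counts per count where both exceed 3 counts.

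Markers of airway and alveolar epithelium were at higher levels in the Sox17-deleted hypoxic group, which also had the higher S phase sums. Within the controls the order differed. Control library 3 had the highest control S phase sum, 303 CPM, and the lowest control sums of all 3 lists below. In the Sox17-deleted hypoxic group, library 1 had the lowest S phase sum, 330.4 CPM, and the lowest alveolar type 2 sum. Library 3 was lowest in the other lists. Library 2 had the highest sums of all 3 lists and the highest mitotic sum, 837 CPM. The highest S phase sum, 663 CPM, was in library 4. Alveolar type 2 markers (7 of 8 with a higher mean in the Sox17-deleted hypoxic group) summed to 882 to 1201 CPM in control and 1923 to 3845 CPM in Sox17-deleted hypoxic libraries, led by Sftpc at 476 ± 73.2 and 1308 ± 349 CPM. Alveolar type 1 markers (4 of 5 higher) summed to 469 to 586 and 599 to 934 CPM, led by Hopx at 304 ± 49.2 and 330.3 ± 147 CPM. Club and ciliated markers (4 of 4 higher) summed to 1275 to 2324 and 2518 to 5601 CPM, led by Scgb1a1 at 1384 ± 413 and 3382 ± 1074 CPM. No marker of these 3 lists was at 0 throughout, and their part in the cell cycle values was not tested.

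Markers of stromal and blood cells overlapped between the groups or were close to 0. Fibroblast markers (3 of 7 higher) summed to 185 to 371 and 67.1 to 750.3 CPM, led by Col1a2 at 106 ± 95.2 and 319.6 ± 254 CPM. Smooth muscle and pericyte markers (3 of 6 higher) summed to 37.1 to 118 and 27.9 to 544 CPM, led by Myh11 at 27.0 ± 27.5 and 195 ± 218 CPM. Macrophage and monocyte markers (7 of 7 higher) summed to 61.8 to 118 and 104 to 429 CPM, led by Chil3 at 31.7 ± 33.6 and 67.4 ± 52.8 CPM, and neutrophil markers (3 of 3 higher) to 48.5 to 124 and 29.0 to 413 CPM, led by S100a9 at 55.8 ± 25.3 and 76.5 ± 61.2 CPM. Lymphocyte markers (6 listed, 5 with a row, 0 higher) summed to 0 to 11.4 CPM in control and 0 to 0.269 CPM in Sox17-deleted hypoxic libraries, with Ms4a1 at 0 in all 8 and Cd3d, the highest, at 3.06 ± 5.60 CPM in controls and 0 in the other group. Erythroid markers (1 of 5 higher) summed to 1179 to 2267 and 222 to 2677 CPM, led by Hba-a1 at 1528 ± 460.0 and 911 ± 870.2 CPM. Of the endothelial markers (3 of 10 higher), the most abundant, Egfl7, had 1883 ± 226 and 2812 ± 1418 CPM (SD, n = 4).

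With edgeR, 0 genes were called of a wider list of 105 cell cycle genes, and DESeq2 called 1. In edgeR 63 passed the filter, 27 with a positive and 36 with a negative log2 fold change, and their median was −0.12. Of its parts, G1 and checkpoint genes had 9 positive and 16 negative members, replication genes 7 and 10, and mitosis genes 11 and 10. At an unadjusted p under 0.05 in edgeR stood 1 of the 63, against 5.12% of all tested genes, and DESeq2 called the same gene, against 1.87% of all, so neither count exceeds the background. That gene was E2f6, which encodes an E2F protein that represses targets of the family. Control libraries held 82, 729, 189 and 96 of its counts, and each Sox17-deleted hypoxic library held 0. Set against the mean floor of 3 counts per library, its mean was at least 78.5-fold lower, or at least 34.3-fold without control library 2. That bound allows for counting error only. Among genes with a mean of 20 to 100 CPM, 20.9% of Sox17-deleted hypoxic values were at 3 counts or fewer. A count of 0 therefore need not mean a level under the floor. The E2f6 adjusted p was 0.346 with edgeR and 0.000880 with DESeq2.

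The other genes of that list with the lowest p in each direction did not pass. Lig1, the replicative DNA ligase gene, had 84.9, 239, 23.1 and 96.7 CPM in the controls and 141, 186, 487 and 308 CPM in the Sox17-deleted hypoxic libraries (a log2 fold change of 1.37, SE 0.65, edgeR unadjusted p = 0.0540). Tfdp2, which encodes a dimer partner of E2F, had 88.7 ± 31.3 and 168 ± 64.4 CPM, and Pola1, the gene of the catalytic subunit of DNA polymerase alpha, 8.36 ± 7.20 and 72.2 ± 49.7 CPM. Gmnn, whose product geminin blocks repeated origin licensing, had 23.0 ± 27.4 and 0.536 ± 1.07 CPM. Cdkn2a, the locus of p16 and p19ARF, had 13.4 ± 11.2 and 1.14 ± 2.28 CPM (SD, n = 4). For these genes the groups overlapped, and the edgeR adjusted p was 0.9997 for each.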

How the data were processed

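Every library has its own deposited table of raw counts, whole numbers listed by gene symbol. The submitters' processing notes name Bowtie2, bedtools and mm10; versions, gene models, strand and duplicate handling are not given in the sources used here. RNA bound to HA-tagged ribosomes was pulled down from lung and sequenced from QuantSeq 3′ libraries, per the labels' protocols. Here, 44 duplicate rows were summed and CPM computed on the library total. Groups were tested with edgeR 4.0.16 in R 4.3.3 (TMM factors, filterByExpr, group alone, quasi-likelihood F test, Benjamini-Hochberg over 8282 genes, call at 0.05); the SE is the log2 fold change over the square root of F. DESeq2 1.42.0 and limma 3.58.1 (voom) were alternatives, and all were tested on simulated counts. The simulation used a fixed dispersion and did not model values that switch between 0 and a clearly detected level. It therefore does not show how the tools perform on these data. Loci come from GENCODE M21 (GRCm38, the mm10 assembly). Whether libraries are separate animals is not given, so p-values measure the spread between libraries, which may be technical.

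The members and gene lists were chosen with earlier results of these data known. Named with values in every library were tested members with a mean of at least 20 CPM, tested members whose groups do not overlap, Mki67, Top2a, Ccnb1, Cdk1 and Sox17; of the wider list, called genes, otherwise the 3 with the lowest p in each direction, and of each cell type list the most abundant member. No depth interval is given per value, since PCR reads are not independent molecules; the floor of 3 counts covers counting error only. Some marker genes are not reported here by name.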

Additional observations from a re-analysis of the deposited data

Results flagged for a closer look

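In 7 of 58 sets of 4 libraries, a library lay far from the other libraries of its group, by a gap that passes the critical value of Dixon's test at 95%. Chance gives about 1 in 20 for normally distributed values, and over all tested genes 14.5% of such sets passed, against 12.1% here, so the number is not high for this series. Cdk1 stood apart at 71.6 CPM in control library 3 and at 101 CPM in Sox17-deleted hypoxic library 2. Ccnb1 did so at 28.9 CPM in control library 1 and at 8.14 CPM in Sox17-deleted hypoxic library 3, and Pcna at 69.0 CPM in control library 2. Cdkn1c had 26.8 CPM in Sox17-deleted hypoxic library 2, and Mcm4 33.9 CPM in Sox17-deleted hypoxic library 4. In each of the 7 the outlying library was the highest.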

How the results depend on the processing

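No alternative called any of the 35 genes. Over all genes, edgeR called 0, DESeq2 155, limma-voom 44, edgeR without a low-count filter 17 and with Sox17-deleted hypoxic libraries 2 to 4 summed 1; leaving out a library gave 0 to 5, the 5 without Sox17-deleted hypoxic library 1. DESeq2 called 1 gene of the wider list, E2f6. Positive members numbered 10 of 12 at a mean of at least 50 CPM, where fewer were tested, and 16 of 27 with a replicate block, in which edgeR called 0 genes; same-numbered libraries did not deviate together (r from −0.009 to 0.012 across genes, and libraries of 2 of the 4 numbers matched their own number best). Members whose groups do not overlap numbered 0 to 6 with a library left out, 4 with libraries 2 to 4 summed and 0 on TMM-scaled CPM, a scaling chosen after seeing the data. Without the most abundant member, the mean sums in control and Sox17-deleted hypoxic libraries were 773 and 1118 CPM for G1 regulators (without Ccnd1; 496 and 749 without Ccnd3 too, chosen after seeing the data), 277 and 149 for inhibitors (without Cdkn1a) and 180 and 380.1 for S phase genes (without Mcm3). Signs reversed in 26 of 342 recomputed log2 fold changes of 22 members, in 10 genes. With limma-voom, whose median over all genes was −0.71, they were −0.23 for Mcm2, −0.55 for Mki67, −0.73 for Top2a, −1.84 for Ccnb2 and −2.58 for Birc5. With the replicate block, whose median over all genes was −0.57, they were −0.18 for Mcm6, −3.79 for Ccnb2 and −2.24 for Birc5. Cdkn1a was 0.0915 with RLE factors and with DESeq2, 0.0031 without a filter and 0.15 with libraries summed, where Ccnb2 was −0.34. With a library left out they ran from −0.22 to 0.36 for Ccnd1, −0.46 to 0.74 for Rb1, −0.22 to 0.34 for Cdkn1a, −0.10 to 1.62 for Mcm6, −0.0752 to 1.37 for Top2a, −0.66 to 1.06 for Ccna2 and −1.41 to 0.99 for Ccnb2. The cause was not tested. Depth limits detection to 0.232 to 0.429 CPM.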
